A study of Mus musculus with 9 samples.

Results

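The genes described here are 52 members of the Wnt signalling pathway, taken by gene symbol from a list, with 1 row of the count table per gene out of 54232 genes listed. They comprise 12 Wnt ligands, the 2 ligand secretion factors Porcn and Wls, the 10 frizzled receptors with the co-receptors Lrp5 and Lrp6, 10 secreted antagonists, 7 feedback regulators at the membrane or in the cytoplasm, 3 members of the destruction complex and 6 nuclear factors. RNA-seq counts were available for mouse OG2 embryonic stem cells, a line from C57 x CBA mice that carries a GFP reporter under the distal Oct4 promoter. Naïve mESCs were kept in serum with LIF, and primed mEpiSCs were made from them in F/A medium, which holds bFGF and Activin A. Both were grown on mitomycin C-treated MEFs (mouse embryonic fibroblasts) and were sampled at passage 5 (P5) and passage 15 (P15), with 2 libraries per state and passage, and 1 library was made from MEFs alone. All naïve and primed libraries came from a single line, so the p-values describe the spread between 2 cultures of that line in each group. The comparisons asked how the transcripts of the pathway differed between the states at each passage and between the passages in each state.

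Wnt ligands are secreted lipid-modified proteins. Porcn adds the lipid and Wls carries the ligand to the cell surface, where it binds a frizzled receptor together with Lrp5 or Lrp6. Without ligand, Axin, Apc and Gsk3b hold β-catenin (Ctnnb1) in a complex that marks it for degradation. With ligand, β-catenin accumulates and joins the TCF and LEF proteins on DNA, and among the genes switched on are feedback regulators of the pathway itself. In the mouse embryo, Wnt3 in the epiblast is needed for the primitive streak, and in culture β-catenin relieves repression by Tcf7l1 in naïve cells.

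Total counts were between 14378051 and 20985136 in the 8 naïve and primed libraries and 25646547 in the MEF library. A count of 0 therefore allowed a level of up to 3 counts, equal to 0.148 to 0.221 CPM (counts per 1000000 counts of the library, scaled by TMM), which covers counting error only. All 8 naïve state markers (among them Zfp42, Esrrb and Tfcp2l1) were lower in primed cells at both passages, and 6 of 7 primed markers (among them Fgf5 and Otx2) were higher at each. The exceptions among the primed markers were Lefty1 at P5, which passed lower (−0.20), and Sox4 at P15, which did not pass (0.0067). Of 5 pluripotency markers used by both states, Pou5f1, Nanog, Sox2 and Sall4 passed lower in primed cells at both passages. Lin28a passed higher at P5 (0.33) and did not pass at P15 (−0.11). The log2 change of Pou5f1 was −1.72 at P5 and −0.35 at P15, that of Nanog −2.01 and −0.62. Of 6 endoderm markers, Sox17 (5.74 and 5.16) and Foxa1 (4.39 and 4.40) passed higher in primed cells at P5 and P15, Apoa1 at P15 alone (4.35), and Cubn passed lower at P5 (−4.16). Their summed level was 14.4 to 14.9 CPM in naïve P5, 48.4 to 52.5 in primed P5, 2.22 to 2.88 in naïve P15 and 34.4 to 38.9 in primed P15, and Afp had 0 counts except in primed P15 and MEFs. Of 4 mesoderm markers tested at each passage, 2 passed higher at P5 and 1 lower at P15, and of 5 neural markers 3 passed higher and 2 lower at P5 and 2 each way at P15. Fibroblast transcripts were present in every naïve and primed library. The median of 30 fibroblast markers reached 12.4% to 14.4% of its MEF level at P5 and 18.2% to 22.7% at P15, with single markers between 1.70% and 343% of their MEF level. Their summed level was 9929 to 9990 CPM in naïve P5, 6003 to 6152 in primed P5, 16580 to 17219 in naïve P15, 14078 to 14728 in primed P15 and 86916 in MEFs. Because these are bulk samples, fewer cells of a type and less RNA per cell cannot be told apart.

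Levels of the 52 genes spanned more than 3 orders of magnitude. Ctnnb1 was the highest in every library, with 645 and 662 CPM in naïve P5 and 805 and 792 CPM in primed P5. At the other end, Lgr5 had 0.147 and 0 CPM in the naïve P15 libraries, and Wnt3a had 0.17 and 0.0558 CPM in primed P15. In MEFs, 22 of the 52 genes were higher than in all 8 naïve and primed libraries, Sfrp1 (628 CPM), Wls (510.1 CPM) and Fzd2 (271 CPM) among them. Another 14 were lower in MEFs than in all 8, such as Tcf7, Lef1, Sp5, Wnt3, Wnt7b, Fzd10 and Sfrp5, and Wnt3a and Wnt8a had 0 counts there. The matching shares of all genes were not computed, so these counts do not show whether the pathway differs from other genes in MEFs.

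**Figure D1:**
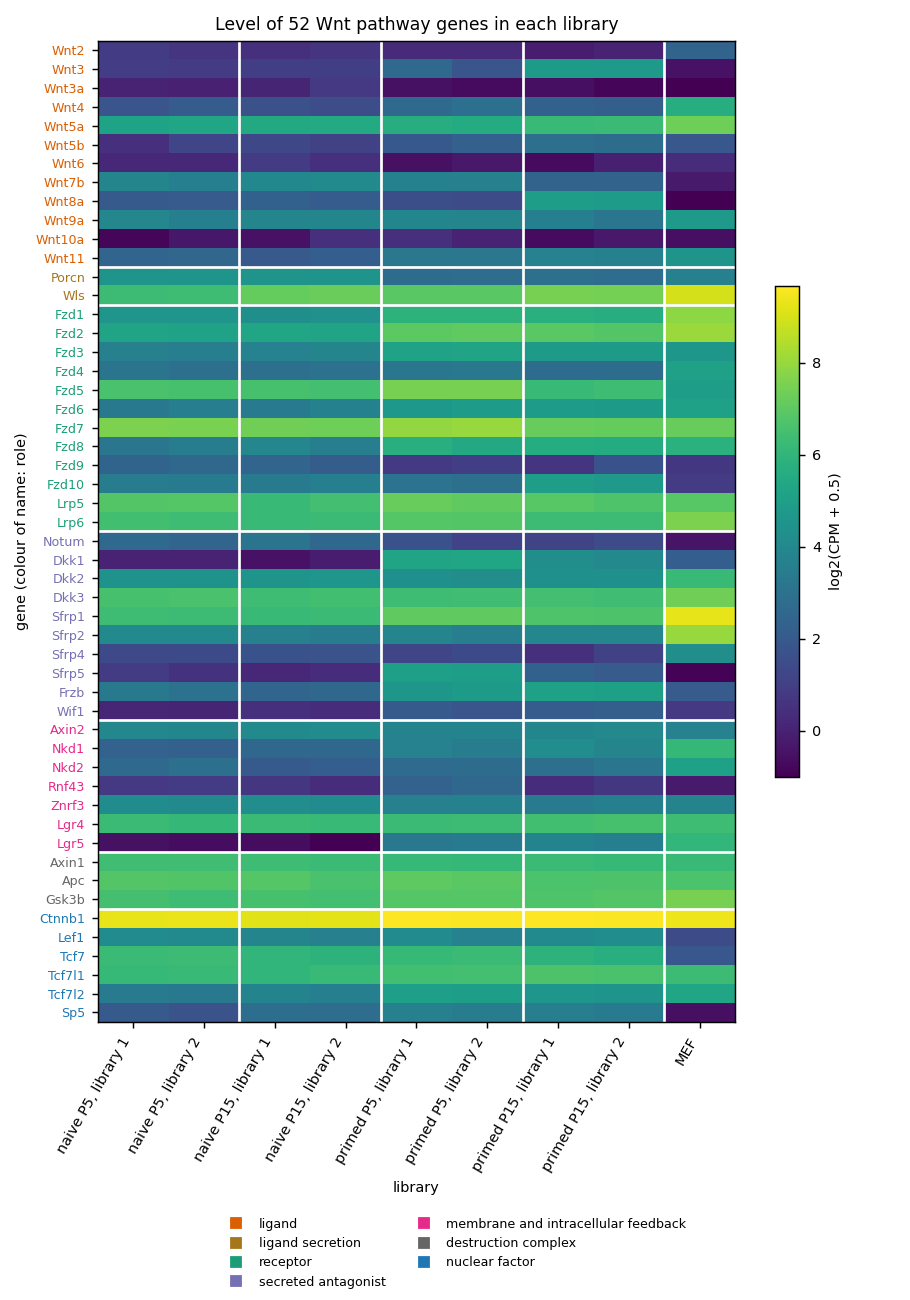
Heat map of the 52 Wnt pathway genes (rows, grouped by role) in the 9 libraries (columns), coloured by log2(CPM + 0.5). The primed columns are brighter for Dkk1, Lgr5, Frzb and Fzd8, Sfrp5 is brightest in primed P5, Wnt3 and Wnt8a are brightest in primed P15, and the MEF column is brightest for Sfrp1 and Wls.

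TCF and LEF proteins bind short DNA sites, so the promoters of the genes were searched for the core letters of such sites. The windows were the 250 bases before the RefSeq start in GRCm38.p6, and 33 of the 52 genes had at least 1 of 43 such windows. CTTTGAT, on either strand, was in 1 window each of Sp5, Wnt5b and Wnt11, and it was in 3.21% of all 32851 promoter windows of this length. All 3 of these matches also fit CTTTGATC, which contains the shorter word and was in 0.801% of windows. CTTTGAA, which cannot match where CTTTGAT does, was in the window of Dkk1 and in 4.46% of all windows. The match began 104 bases before the start in Sp5, 71 in Wnt5b, 51 in Wnt11 on the other strand, and 117 in Dkk1. Wnt5b had 3 windows and Wnt11 had 2, and for each the 1 window with a match is printed. The Wnt5b window belongs to an internal start, because it lies within the annotated gene (chr6:119432531-119544347). The Dkk1 window partly overlaps the annotated gene (chr19:30545863-30549665), and the Dkk1 match lies within that gene. The window printed for Wnt3 also runs past the annotated start of its gene (chr11:103774150). Wnt3 and Axin2 are printed for comparison, Wnt3 because its rise between P5 and P15 was among the largest and Axin2 because its level did not pass at either passage. Neither holds these words in its window, which says nothing about sites elsewhere. The sequences run 5′ to 3′ along the gene's strand, and capitals mark the match.
Sp5 (chr2:70474673-70474922, plus strand): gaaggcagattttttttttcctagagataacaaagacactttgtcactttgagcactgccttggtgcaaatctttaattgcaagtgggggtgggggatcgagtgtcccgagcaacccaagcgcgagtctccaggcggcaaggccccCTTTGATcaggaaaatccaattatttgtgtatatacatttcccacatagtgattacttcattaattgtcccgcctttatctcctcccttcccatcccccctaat
Wnt5b (chr6:119449387-119449636, minus strand): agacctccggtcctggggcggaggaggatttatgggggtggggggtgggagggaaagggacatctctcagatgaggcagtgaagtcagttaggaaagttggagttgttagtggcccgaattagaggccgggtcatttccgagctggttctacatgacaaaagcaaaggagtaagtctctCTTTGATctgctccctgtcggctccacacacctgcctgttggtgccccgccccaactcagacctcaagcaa
Wnt11 (chr7:98834862-98835111, plus strand): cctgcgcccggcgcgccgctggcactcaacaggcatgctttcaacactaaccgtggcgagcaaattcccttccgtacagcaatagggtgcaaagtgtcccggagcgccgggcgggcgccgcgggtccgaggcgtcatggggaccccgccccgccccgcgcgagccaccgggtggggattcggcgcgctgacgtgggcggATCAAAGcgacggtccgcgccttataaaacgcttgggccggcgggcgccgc
Dkk1 (chr19:30549497-30549746, minus strand): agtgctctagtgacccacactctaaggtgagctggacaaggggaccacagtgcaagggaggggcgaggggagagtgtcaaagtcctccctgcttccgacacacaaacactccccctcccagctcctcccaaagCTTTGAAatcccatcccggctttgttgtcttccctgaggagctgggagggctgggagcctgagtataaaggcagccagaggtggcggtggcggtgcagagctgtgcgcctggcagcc
Wnt3 (chr11:103773925-103774174, plus strand): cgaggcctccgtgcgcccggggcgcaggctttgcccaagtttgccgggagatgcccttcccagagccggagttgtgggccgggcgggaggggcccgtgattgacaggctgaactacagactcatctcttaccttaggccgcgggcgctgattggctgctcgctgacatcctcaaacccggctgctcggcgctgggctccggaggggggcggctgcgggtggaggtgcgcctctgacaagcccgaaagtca
Axin2 (chr11:108920099-108920348, plus strand): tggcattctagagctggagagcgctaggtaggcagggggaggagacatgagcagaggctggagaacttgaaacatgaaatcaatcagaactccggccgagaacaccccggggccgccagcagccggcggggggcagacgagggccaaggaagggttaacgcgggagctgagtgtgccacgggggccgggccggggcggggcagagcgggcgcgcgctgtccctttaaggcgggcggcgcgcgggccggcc

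Between the states, more Wnt pathway genes rose than fell in primed cells at both passages. Secreted antagonists and frizzled receptors made up 9 of the 16 genes that were at least 2-fold higher at P5 and 10 of the 17 at P15, while the acyltransferase gene Porcn, the receptor gene Fzd9 and the deacylase gene Notum were lower at both passages. These 2 classes hold 10 genes each of the 52. The share at least 2-fold higher was 40% of antagonists and 42.9% of feedback regulators at each passage. Among receptors, with Lrp5 and Lrp6, it was 41.7% at P5 and 50% at P15. Calls required an adjusted p below 0.01 and a change of at least 2-fold (edgeR's quasi-likelihood test, Benjamini-Hochberg adjustment over all genes tested), and a gene is said to have passed where the adjusted p was below 0.01 whatever its fold. At P5, 16 of 51 genes tested were called higher (31.4%) and 3 lower (5.88%), against 13.5% and 8.85% of the 16482 genes tested in the whole table. By the adjusted p alone, 29 passed higher and 8 lower, against 31.2% and 31.1% of all genes. At P15, 17 of 50 were called higher (34%) and 6 lower (12%), against 12.2% and 11% of 15733 genes, and 29 passed higher and 9 lower, against 28.2% and 28.4%. The median log2 fold change was 0.30 over the genes tested at P5 and 0.43 at P15, where it was 0.0078 and −0.0039 over all genes. Wnt10a was tested at neither passage and Wnt3a not at P15, because too few libraries reached 10 counts. Called higher at both passages were 13 genes: Wnt3, Wnt5b, Fzd1, Fzd2, Fzd3, Fzd6, Fzd8, Nkd1, Lgr5, Dkk1, Sfrp5, Frzb and Wif1. Over all 15487 genes tested at both passages, 8.34% were called higher at both and 6.59% lower. Tcf7l2, Sp5 and Rnf43 were called higher at P5 and not at P15, and Wnt8a, Wnt11, Fzd10 and Nkd2 at P15 and not at P5, but only for Sp5, Rnf43, Wnt8a, Fzd10 and Nkd2 was the difference between the passages itself called. When libraries were scaled by their totals without TMM, the median of all genes moved to 0.21 at P5 and 0.10 at P15, and 18 genes were called higher at P5 and 17 at P15.

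**Figure D2:**
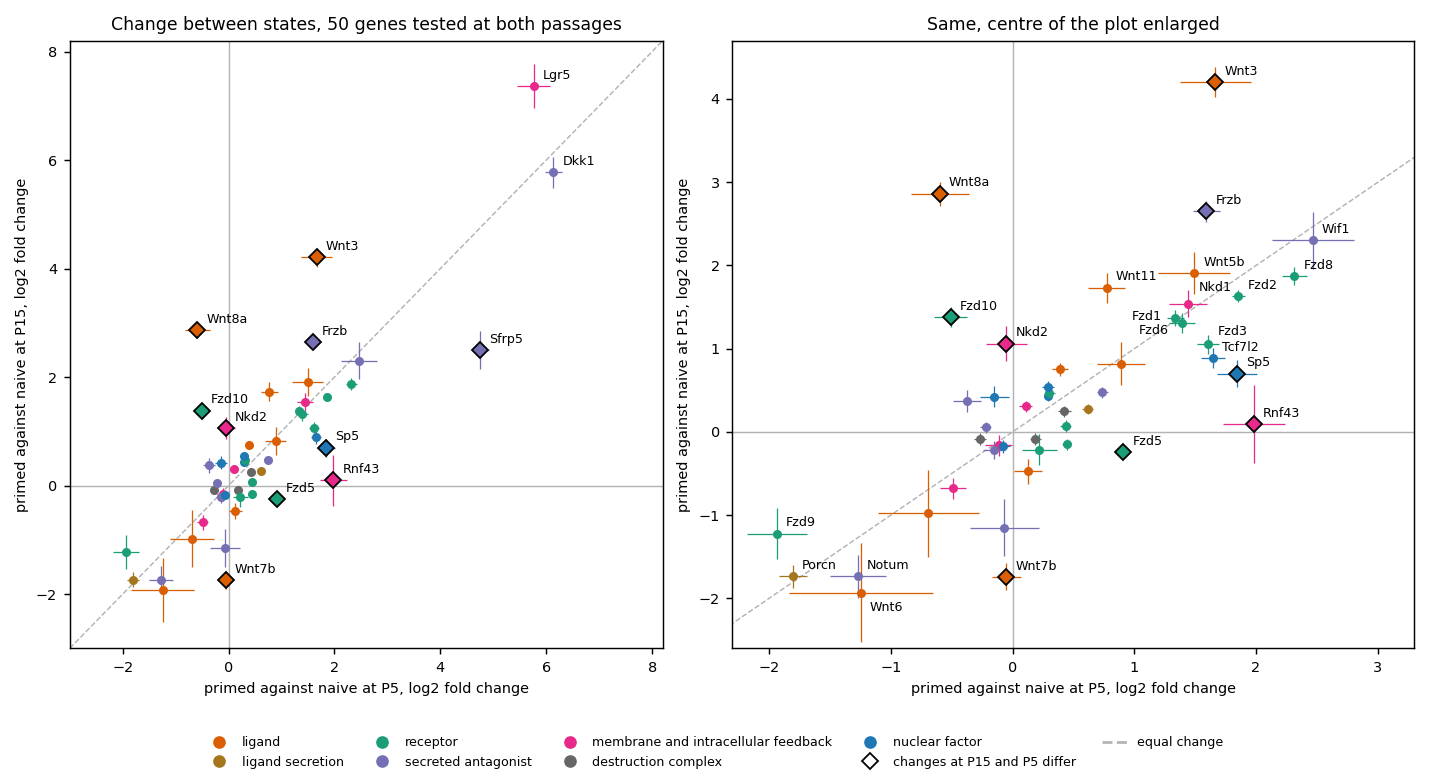
Log2 fold change of primed against naïve cells at P5 (horizontal) and at P15 (vertical) for the 50 genes tested at both passages, with the standard error as bars and 2 libraries per group. Diamonds mark the 10 genes whose change was called different between the passages: Wnt8a, Wnt3, Fzd10, Nkd2 and Frzb lie above the dashed line of equal change, and Sfrp5, Rnf43, Wnt7b, Fzd5 and Sp5 below it.

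Among the ligands, 5 of 11 tested passed higher in primed cells at P5 and 0 lower, and at P15 6 of 10 passed higher and 3 lower. The shares of all genes that passed were 31.2% higher and 31.1% lower at P5, and 28.2% and 28.4% at P15. Wnt3, the ligand needed for the primitive streak, rose most at P15. Its level was 1.43 and 1.33 CPM in the naïve P5 libraries and 1.47 and 1.46 CPM in naïve P15. Primed P5 libraries held 5.7 and 2.98 CPM, and primed P15 libraries 28.1 and 26.2 CPM, against 0.216 CPM in MEFs. The primed libraries were thus all above the naïve ones, with a wide gap between the 2 primed P5 libraries. At P5 the log2 fold change was 1.66 ± 0.29 (SE), with an adjusted p of 1.07e-05, and at P15 it was 4.21 ± 0.18, with an adjusted p of 1.46e-21. Without the first primed P5 library the P5 value was 1.11 (adjusted p = 0.0199).

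Wnt8a, a ligand of the primitive streak and early mesoderm, was high in primed P15 alone. The naïve libraries held 3.51 and 3.74 CPM at P5 and 4.42 and 3.74 CPM at P15. Primed cells had 2.47 and 2.31 CPM at P5 and 30.7 and 28.4 CPM at P15. Both primed P5 libraries lay below all naïve libraries (log2 fold change −0.60 ± 0.24, adjusted p = 0.0261, which did not pass), and both primed P15 libraries lay far above them (2.86 ± 0.14, adjusted p = 2.47e-19).

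Wnt7b ran the other way. Its level was 13.9 and 11.6 CPM in naïve P5, 12.4 and 12.2 CPM in primed P5 and 15.2 and 16.7 CPM in naïve P15, and only primed P15 stood apart, with 4.72 and 4.8 CPM. At P5 the log2 change between states was −0.051 ± 0.12 and did not pass (adjusted p = 0.718), whereas at P15 it was −1.74 ± 0.16 (adjusted p = 6.75e-12).

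Wnt5a and Wnt11, ligands best known for β-catenin-independent signalling, were higher in primed cells at both passages. Wnt5a had 36 and 38 CPM in naïve P5 and 49 and 47.6 CPM in primed P5, then 44 and 45.4 CPM in naïve P15 and 73.6 and 76.6 CPM in primed P15. That is 1.31-fold at P5 and 1.68-fold at P15, with adjusted p of 4.82e-06 and 4.58e-11. Wnt11 rose from 5.04 and 5.32 CPM to 8.78 and 8.89 CPM at P5 (log2 fold change 0.77) and from 3.39 and 4.12 CPM to 12.7 and 12.4 CPM at P15 (1.73). Both genes were higher still in MEFs, at 157 CPM for Wnt5a and 22.4 CPM for Wnt11, and the part of the feeder cells in these changes was not tested.

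Wnt5b, the close relative of Wnt5a, had 0.89 and 1.82 CPM in naïve P5 and 3.33 and 4.33 CPM in primed P5, and 1.99 and 1.59 CPM against 7.1 and 6.25 CPM at P15. The groups did not overlap at either passage, and the log2 fold changes were 1.49 and 1.91. Without the second primed P5 library the P5 value was 1.29 with an adjusted p of 0.0289. Wnt5b overlaps Fbxl14 on the other strand, which reached 1399 counts, and the library kit does not mark strand, so its level is uncertain. Wnt4, a ligand of kidney and gonad development, passed with 0.89 at P5 and 0.82 at P15, at 2.35 to 6.87 CPM against 49.8 CPM in MEFs. Wnt9a passed lower at P15 (−0.48, adjusted p = 0.00523) and was at 0.13 at P5. Wnt6 was called lower at P15 (−1.93, adjusted p = 0.0047) from 1.33 and 0.888 CPM in naïve and 0.114 and 0.447 CPM in primed libraries, and its adjusted p was 0.117 without the first primed P15 library and 0.0365 without the first naïve P15 library, and 0.0546 with DESeq2. Wnt3a, a ligand of the later streak, held 27 counts over both naïve P15 libraries and 4 over both primed ones, a ratio of 8.18 with a 95% interval from counting error of 2.85 to 32.2. Wnt2 stayed between 0.398 and 1.34 CPM and did not pass, and Wnt10a was between 0.0494 and 0.888 CPM.

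Of the secretion factors, Porcn fell and Wls rose. Porcn had 22.8 and 22.2 CPM in naïve P5, 22.6 and 22.8 CPM in naïve P15, 6.36 and 6.53 CPM in primed P5 and 7.16 and 6.48 CPM in primed P15. Naïve and primed libraries thus formed separate levels with little spread, 3.5-fold apart at P5 and 3.34-fold apart at P15 (adjusted p = 2.11e-14 and 9.08e-14). Wls was 1.53-fold higher in primed cells at P5 and 1.21-fold higher at P15. MEFs held 510.1 CPM of Wls, and at P15 its level was 141 and 151 CPM in naïve and 180.1 and 174 CPM in primed libraries.

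At P5, 7 of the 10 frizzled genes passed higher in primed cells and 2 lower, and at P15 6 passed higher and 2 lower. Over all genes, 31.2% passed higher and 31.1% lower at P5, and 28.2% and 28.4% at P15. Of the frizzled genes, Fzd1, Fzd2, Fzd3, Fzd6 and Fzd8 were called higher at both passages and Fzd9 lower at both, while Fzd4 passed at neither. Fzd2, a receptor for Wnt5a and Wnt3a, went from 36.9 and 35 CPM in naïve to 127 and 132 CPM in primed cells at P5, and from 39.2 and 36.7 CPM to 124 and 111 CPM at P15. These are 3.61-fold and 3.09-fold differences (adjusted p = 5.64e-23 and 1.54e-20), and no primed library came near a naïve one. Fzd8 had 8.5 and 10.6 CPM in naïve P5 and 51.9 and 43 CPM in primed P5, then 14.7 and 11.5 CPM in naïve P15 and 47.8 and 47.2 CPM in primed P15, a log2 fold change of 2.32 ± 0.10 and 1.87 ± 0.11. Fzd1, Fzd3 and Fzd6 rose 2.52-fold, 3.04-fold and 2.62-fold at P5, and 2.58-fold, 2.08-fold and 2.49-fold at P15.

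Fibroblasts express these receptors too. The MEF library held 229 CPM of Fzd1, 271 of Fzd2, 33.7 of Fzd6 and 56.1 of Fzd8. Fzd2 was at 47.8% of its MEF level in primed P5 against 13.3% in naïve P5, and at 43.3% against 14% at P15. Fzd1 was at 25.7% against 10.2% and at 22.7% against 8.8%. The median fibroblast marker was at 12.6% to 14.4% in primed P5 and 12.4% to 12.6% in naïve P5, and at 20.8% to 22.7% and 18.2% at P15. Of the 30 markers, 7 passed higher in primed cells and 17 lower at P5, with Dcn (3.56) and Lum (2.91) among those higher, and 14 passed higher and 12 lower at P15. After the lowest marker's share of the MEF profile was taken off each library, the log2 fold changes at P5 and P15 were 1.49 and 1.77 for Fzd1, 2.0 and 1.87 for Fzd2, 1.44 and 1.39 for Fzd6, and 2.44 and 2.02 for Fzd8. That share was only 1.70% to 2.90% of the MEF level, far below these genes in primed libraries. Taking it off could not undo the calls and does not test the part of the feeder cells. With the median marker's share taken off, Fzd6 (1.91 and 2.07) and Fzd8 (4.0 and 3.74) were called higher at both passages. A similar share came off both states, which enlarges a change already present. These calls therefore do not test the part of the feeder cells either. For Fzd1 and Fzd2 that share took off nearly all naïve counts. The subtraction itself then yields a higher call for Fzd1 and Fzd2, so neither the call nor the size of their change could be judged.

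Fzd5, Fzd7 and Fzd10 differed between the passages. Fzd7, a receptor much used by pluripotent cells, was the highest frizzled gene by CPM in all naïve and primed groups. It passed higher in primed cells at P5, from 189 and 184 CPM to 249 and 258 CPM, and at P15 the naïve libraries held 163 and 160.5 CPM and the primed ones 147 and 143 CPM (log2 fold change −0.15, adjusted p = 0.0298). Fzd5 passed in opposite directions. It had 97.2 and 94.4 CPM in naïve P5 and 179.7 and 179 CPM in primed P5 (0.91 ± 0.04, adjusted p = 8.18e-18), but 94.4 and 89.4 CPM in naïve P15 and 74 and 80.5 CPM in primed P15 (−0.25 ± 0.07, adjusted p = 0.00228). Fzd10 did the reverse, with 11 and 10.4 CPM against 7.82 and 7.15 CPM at P5 (−0.51) and 10.3 and 11.7 CPM against 31.5 and 25.9 CPM at P15 (1.38). Fzd10 was at 1.38 CPM in MEFs, below every naïve and primed library. Fzd9 fell from 4.94 and 5.51 CPM to 1.26 and 1.46 CPM at P5. At P15 the naïve libraries had 5.01 and 3.87 CPM and the primed ones 1.08 and 2.68 CPM, and that call was lost without the first primed P15 library (−0.71, adjusted p = 0.0638), without the first naïve P15 library (adjusted p = 0.0191) and with DESeq2 (adjusted p = 0.0124). Co-receptor genes moved less, by 0.30 and 0.47 for Lrp5 and by 0.44 and 0.074 for Lrp6, of which the last did not pass (adjusted p = 0.349).

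Secreted antagonists held some of the largest changes of the pathway. Dkk1, which blocks Lrp5 and Lrp6, was barely detected in naïve cells, at 0.544 and 0.541 CPM at P5 and 0.221 and 0.381 CPM at P15. Primed cells held 37.6 and 39.6 CPM at P5 and 18.7 and 15.6 CPM at P15, and MEFs 4.01 CPM, below all 4 primed libraries. Primed cells were 71.1-fold above naïve at P5 (log2 fold change 6.14 ± 0.16, adjusted p = 1.31e-23) and 56.9-fold at P15 (5.77 ± 0.28, adjusted p = 1.12e-19).

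Sfrp5, which binds Wnt ligands outside the cell, was highest in primed P5. Naïve libraries held 1.34 and 0.985 CPM at P5 and 0.664 and 0.761 CPM at P15, and MEFs 0.0432 CPM. Primed libraries held 32 and 30.9 CPM at P5 and 4.55 and 3.63 CPM at P15. All primed libraries were above all naïve ones, by 27.1-fold at P5 and 5.74-fold at P15 (adjusted p = 1.41e-21 and 1.03e-07).

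Frzb, another frizzled-related antagonist, had 9.49 and 7.73 CPM in naïve P5, 24.4 and 27.5 CPM in primed P5, 5.16 and 5.52 CPM in naïve P15 and 33.7 and 33.3 CPM in primed P15. The states were 3.02-fold apart at P5 and 6.27-fold at P15. Wif1, which binds Wnt ligands directly, rose from 0.593 and 0.591 CPM to 3.53 and 3.04 CPM at P5 and from 0.885 and 0.761 CPM to 3.86 and 4.24 CPM at P15. Of the 6 endoderm markers given above, Sox17 and Foxa1 were higher in the same primed groups as Dkk1, Sfrp5, Frzb and Wif1. Cubn passed lower at P5 (−4.16). The part of endoderm cells in these changes was not tested. Notum, which removes the lipid from Wnt ligands, fell instead. It had 5.79 and 5.12 CPM in naïve P5, 2.72 and 1.74 CPM in primed P5, 8.04 and 5.46 CPM in naïve P15 and 1.76 and 2.23 CPM in primed P15, with log2 fold changes of −1.27 and −1.74 (adjusted p = 1.45e-05 and 2.49e-07) and no overlap between states.

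The other antagonists are strongly expressed by fibroblasts. Sfrp1 stood at 628 CPM and Sfrp2 at 259 CPM in MEFs, and in the naïve and primed libraries Sfrp1 was at 75.8 to 133 CPM and Sfrp2 at 11.1 to 16.8 CPM. Sfrp1 passed higher at both passages (0.74 and 0.48), and Sfrp2 passed lower at P5 (−0.37) and was at 0.37 at P15 (adjusted p = 0.0155). Dkk3, a divergent Dkk member, passed lower at P5 (−0.22) and Dkk2 passed at neither passage. Sfrp4 was called lower at P15 (−1.15) with 0.909 and 1.56 CPM in primed libraries, and its adjusted p rose to 0.108 without the first primed P15 library, and to 0.0121 and 0.0185 without the first or the second naïve one.

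Of the feedback regulators, Lgr5 rose most, Nkd1 rose at both passages, and Axin2 did not pass. Lgr5, a receptor for R-spondins and a marker of stem cells in several epithelia, had 0 to 4 counts in each naïve library. Its level was 9.28 and 10.1 CPM in primed P5 and 13.4 and 11.6 CPM in primed P15. Over both libraries, primed P5 had 364 counts and naïve P5 7, a ratio of 56.1 with a 95% interval of 26.9 to 140.5 from counting error alone. At P15 the counts were 443 and 2, a ratio of 183 with an interval of 50.3 to 1515. Both differences passed (adjusted p = 5.21e-16 and 5.55e-18). The MEF library held 1557 counts of Lgr5 (67.2 CPM), so that primed libraries were at 14.4% (P5) and 18.6% (P15) of the MEF level, beside 12.6% to 14.4% and 20.8% to 22.7% for the median fibroblast marker. Naïve libraries, in which that median marker was at 12.4% to 18.2% of its MEF level, held Lgr5 at 0.257% and 0.11%. Lgr5 stayed called higher at both passages with the lowest fibroblast marker's share taken off. That share was only 1.70% to 2.90% of the MEF level, far below Lgr5 in primed libraries. Taking it off could not undo the calls and does not test the part of the feeder cells. With the median marker's share taken off, too few counts of Lgr5 were left to test it.

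Nkd1, which antagonises Dishevelled, went from 4.55 and 4.28 CPM to 12.9 and 11 CPM at P5 and from 5.6 and 5.46 CPM to 18.1 and 14 CPM at P15, beside 69.5 CPM in MEFs. Its relative Nkd2 was called at P15 alone (1.06), where naïve libraries had 3.54 and 4.0 CPM and primed ones 7.22 and 8.54 CPM. With the median fibroblast share taken off, neither Nkd1 nor Nkd2 kept enough counts at P15 to be tested. Rnf43, a ubiquitin ligase that removes frizzled from the membrane, had 1.19 and 1.38 CPM in naïve P5 and 4.59 and 5.57 CPM in primed P5, 3.96-fold higher (adjusted p = 5.78e-08). At P15 its naïve libraries held 1.11 and 0.761 CPM and its primed ones 0.795 and 1.17 CPM, which overlap. Its partner Znrf3 fell at both passages, by 1.41-fold and 1.61-fold. Lgr4, the broadly expressed R-spondin receptor, passed at P15 alone (0.31).

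Axin2, a widely used readout of β-catenin activity, did not pass between the states at either passage. It was at 14.8 and 14.4 CPM in naïve P5, 13.3 and 13.7 CPM in primed P5, 16.9 and 17.2 CPM in naïve P15 and 14.4 and 16 CPM in primed P15. The log2 fold change was −0.11 ± 0.11 (adjusted p = 0.355) and −0.16 ± 0.12 (adjusted p = 0.253). MEFs held 12.8 CPM.

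**Figure D3:**
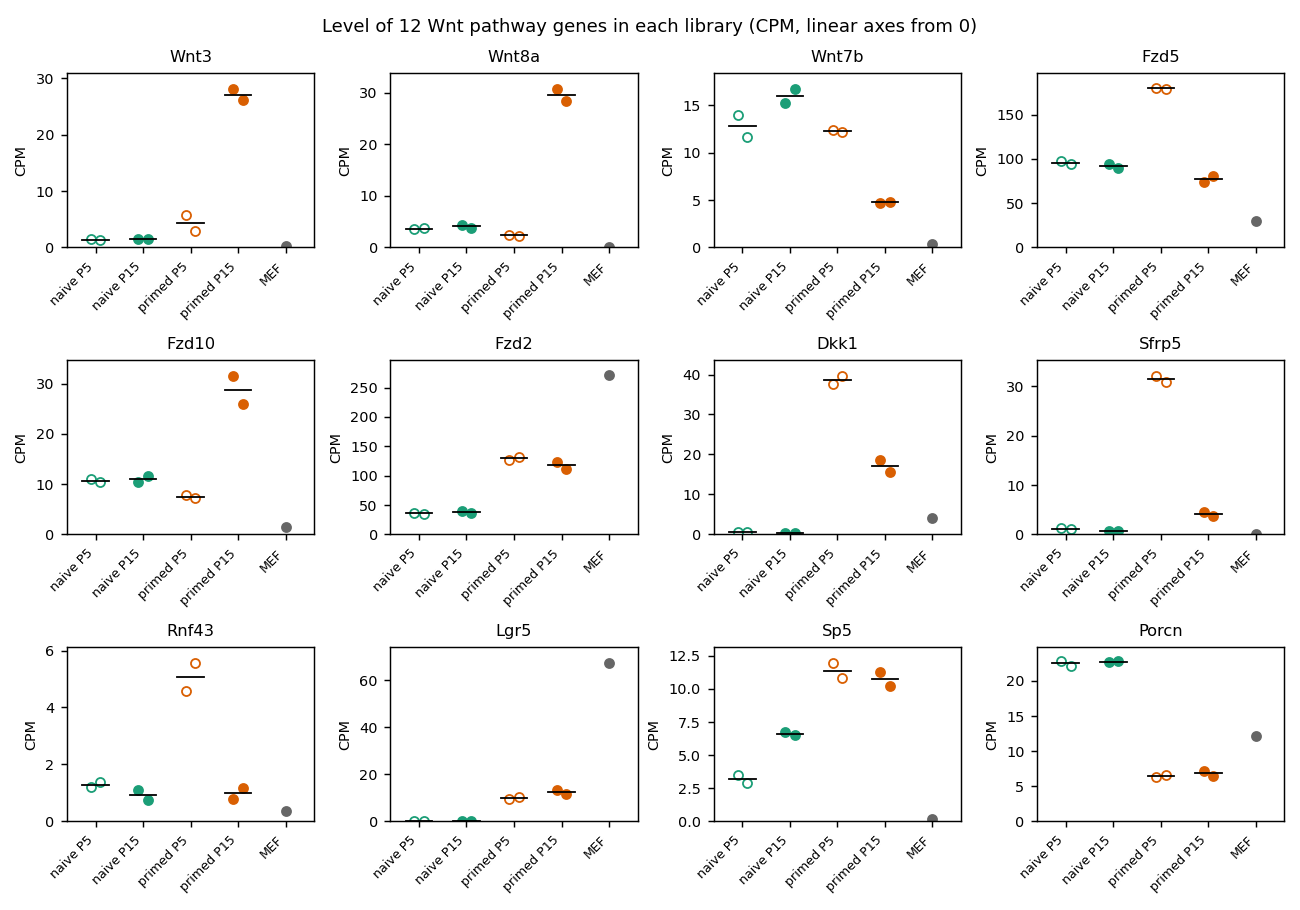
CPM of 12 Wnt pathway genes in each library, on linear axes from 0, with open points for P5 and filled points for P15, green for naïve, orange for primed and grey for MEFs, and a line at the mean of the 2 libraries. Wnt3, Wnt8a and Fzd10 are highest in primed P15, Sfrp5, Rnf43 and Fzd5 in primed P5, Porcn is low in all primed libraries, and Fzd2 and Lgr5 are highest in MEFs.

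Genes of the destruction complex changed by less than 1.5-fold. Axin1, the scaffold, passed lower at P5 (−0.27), the tumour suppressor gene Apc higher at P5 (0.19), and Gsk3b, the kinase that marks β-catenin, higher at both passages (0.43 and 0.25). At P15 the values were −0.089 for Axin1 and −0.088 for Apc, which did not pass.

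Among the nuclear factors, Ctnnb1, Tcf7l1, Tcf7l2 and Sp5 passed higher at both passages. Ctnnb1 was 1.22-fold higher in primed cells at P5 and 1.34-fold at P15, with 591 and 598 CPM in naïve P15 and 816 and 781 CPM in primed P15. Tcf7l1, which acts mostly as a repressor, had 70.7 and 72.8 CPM in naïve P5 and 85.9 and 88.9 CPM in primed P5, then 64.5 and 72 CPM in naïve P15 and 102 and 96.5 CPM in primed P15. Tcf7l2 changed more, from 10.2 and 9.6 CPM to 32 and 29.8 CPM at P5 (3.13-fold) and from 13.5 and 11.7 CPM to 23.6 and 22.8 CPM at P15 (1.84-fold). Its MEF level was 39.8 CPM. Tcf7, the most abundant TCF gene of naïve cells per length, did not pass at either passage (−0.075 and −0.17), and Lef1 passed at P15 alone (0.43).

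Sp5, a direct target of β-catenin whose promoter window above holds CTTTGAT, had 3.51 and 2.86 CPM in naïve P5 and 12 and 10.8 CPM in primed P5. At P15 it had 6.71 and 6.54 CPM in naïve and 11.2 and 10.2 CPM in primed cells. The states were 3.58-fold apart at P5 and 1.62-fold at P15 (adjusted p = 4.52e-11 and 0.000339), and the primed libraries of both passages overlapped.

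With passage, more genes were called in primed than in naïve cells, in the pathway and over all genes. From P5 to P15 in primed cells, 3 of 49 genes tested were called higher and 5 lower (6.12% and 10.2%, against 3.18% and 8.43% of all 15957 genes tested). In naïve cells 1 of 50 was called higher (2%) and 0 lower, against 0.414% and 0.721% of 15683 genes. With DESeq2 the naïve count lower was also 0, and 12 genes were lower at an unadjusted p under 0.05. Wnt8a rose 12.4-fold in primed cells (3.63 ± 0.14, adjusted p = 4.6e-18), Wnt3 6.25-fold (2.63 ± 0.15, adjusted p = 4.99e-14) and Fzd10 3.84-fold (1.95 ± 0.12, adjusted p = 1.22e-13). Sfrp5 fell 7.7-fold, Rnf43 5.16-fold, Wnt7b 2.59-fold, Fzd5 2.32-fold and Dkk1 2.25-fold. Wls rose with passage in both states, 1.83-fold in naïve and 1.45-fold in primed cells, and summed fibroblast markers rose in both states as well. In naïve cells the only call was Sp5, 2.08-fold higher at P15 (adjusted p = 0.00279), which was lost without the first naïve P15 library (adjusted p = 0.0107), without the second naïve P5 library (adjusted p = 0.0138) and with no filter on low counts (adjusted p = 0.0168). Lrp5, Fzd7, Tcf7 and Sfrp2 passed lower in naïve P15 by less than 2-fold.

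For 10 genes the change between states was itself called different between the passages, against 2.36% (positive) and 4.8% (negative) of the 16926 genes tested. The P15 change minus the P5 change, on the log2 scale, was positive for Wnt8a (3.47 ± 0.25), Wnt3 (2.55 ± 0.39), Fzd10 (1.91 ± 0.18), Nkd2 (1.13 ± 0.26) and Frzb (1.07 ± 0.18). It was negative for Sfrp5 (−2.24 ± 0.45), Rnf43 (−1.87 ± 0.52), Wnt7b (−1.67 ± 0.20), Fzd5 (−1.14 ± 0.08) and Sp5 (−1.12 ± 0.23). Of the latter, Wnt7b was near 0 at P5 and fell at P15. The Rnf43 call was lost without the first primed P15 library (adjusted p = 0.0291), the first naïve P5 library (0.0167), the first naïve P15 library (0.0537) or the second primed P5 library (0.0252), with DESeq2 (0.0161) and with the median fibroblast share taken off (0.0243). Nkd2 lost its call without the second naïve P5 library (0.97, adjusted p = 0.0110) and with the median fibroblast share taken off (adjusted p = 0.0557). A further 9 genes passed with a difference under 2-fold, namely Wnt5a, Wnt11, Dkk3, Sfrp2, Fzd3, Fzd7, Lrp6, Tcf7l2 and Wls.

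Levels were also summed within each family per length, as CPM per kb of exon. The 12 Wnt ligands summed to 17.3 and 17.7 CPM per kb in the naïve P5 libraries, 19.5 and 19.9 in naïve P15, 21.3 and 22.1 in primed P5, and 45.1 and 47.8 in primed P15. Wnt5a was the highest ligand in naïve cells and in primed P5, at 27.0% to 29.0% of the sum. In primed P15 Wnt8a led with 16.9 CPM per kb (36.4%), then Wnt5a with 9.6 and Wnt3 with 8.82, and the ranges of these 3 did not overlap. Frizzled genes summed to 75.4 to 82.5 CPM per kb in naïve libraries, 150.5 to 153 in primed P5 and 111 to 117 in primed P15. Fzd7 made up 50.3% of that sum in naïve P5 and 46.8% in naïve P15, and 36.8% in primed P5. In primed P15 Fzd2 (32.1 CPM per kb) and Fzd7 (32) overlapped at the top. Antagonists summed to 60.1 to 67.3 CPM per kb in naïve libraries, 109 in both primed P5 libraries and 83.2 to 86.5 in primed P15. Dkk3 was the highest antagonist except in primed P5, where Sfrp1 was, followed by Dkk3 and then Sfrp5 (16.6) and Dkk1 (15.9), whose ranges overlapped. Of the TCF and LEF genes, Tcf7 led over Tcf7l1 in naïve cells and primed P5, and in primed P15 Tcf7l1 (25.3) lay above Tcf7 (20.8) without overlap. Fibroblast transcripts are included in all of these sums.

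**Figure D4:**
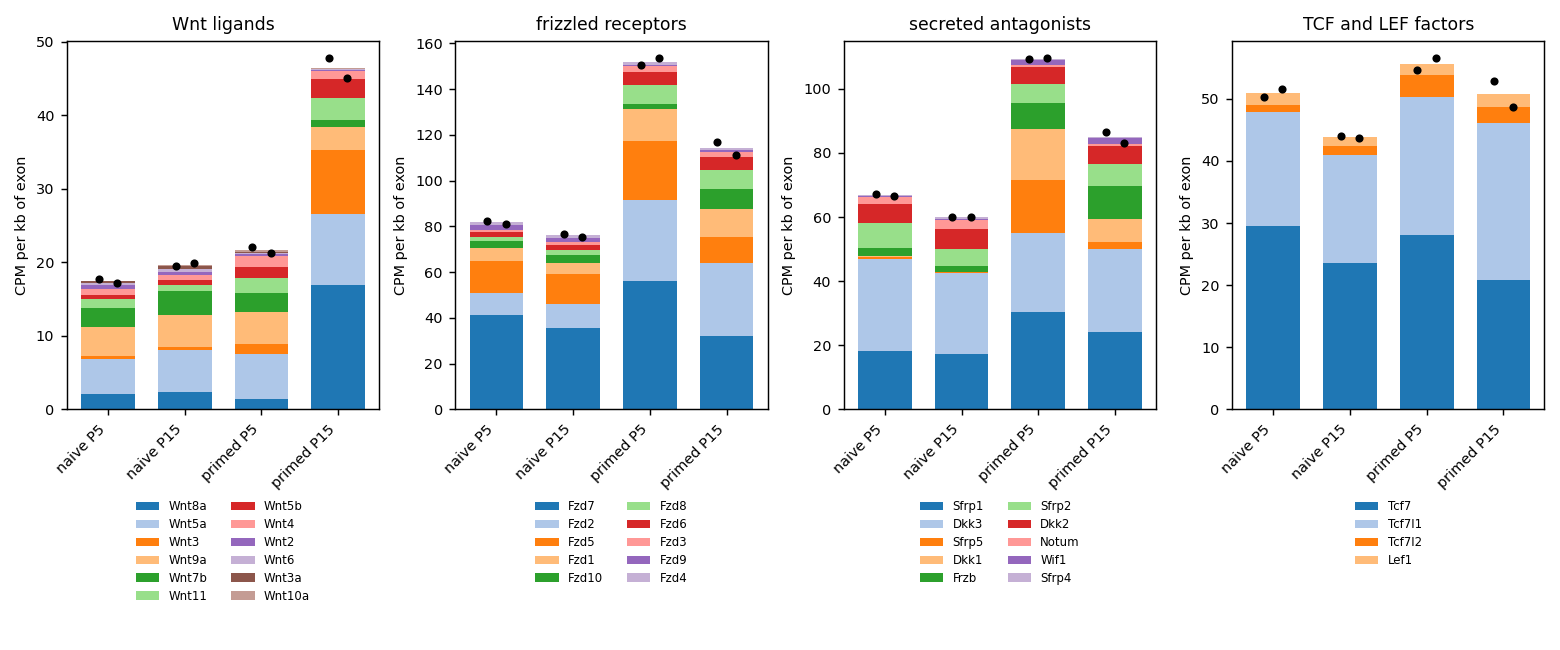
Stacked bars of the group mean level, in CPM per kb of exon, of 12 Wnt ligands, 10 frizzled receptors, 10 secreted antagonists and 4 TCF and LEF factors by state and passage, with a black point for the sum in each library. The ligand bar of primed P15 is the tallest, with 45.1 and 47.8 in its libraries, while frizzled and antagonist bars are tallest in primed P5.

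Outside the 52 genes, 69 further genes of the pathway were read from a list that covers R-spondins and other ligands, further receptors and antagonists, cytoplasmic transducers, nuclear cofactors and targets, and planar polarity genes. At P5, 32 of 63 tested passed higher in primed cells and 13 lower, 18 and 5 of them called (28.6% and 7.94%, against 13.5% and 8.85% of all genes), and the median log2 fold change was 0.26. At P15, 26 of 61 passed higher and 11 lower, 10 and 7 of them called (16.4% and 11.5%, against 12.2% and 11%), with a median of 0.18. Of the 61 tested at both passages, 9 were called higher at both (14.8%) and 4 lower (6.56%), against 8.34% and 6.59% of all genes. Among those higher, Cer1, a secreted inhibitor of Nodal, BMP and Wnt proteins, had 0 or 1 count in each naïve library, 212 and 213 CPM in primed P5 and 236 and 233 CPM in primed P15. T (brachyury), a streak factor and Wnt target, was at 1.24 and 1.08 CPM in naïve P5 and 101 and 98 CPM in primed P5. The R-spondin gene Rspo4, whose product binds Lgr receptors, rose from 0.221 and 0.254 CPM in naïve P15 to 12.3 and 9.83 CPM in primed P15, and Sostdc1, an antagonist, from 0.369 and 0.19 to 5.85 and 6.25 CPM. All of these were at or under 0.345 CPM in MEFs. Of the 6 endoderm markers, Sox17 and Foxa1 were higher in the same primed groups. Cubn passed lower at P5 (−4.16) and did not pass at P15 (−0.61). The part of endoderm cells in these changes was not tested. Lower were Cdx1, a homeobox target of the pathway (−4.09 at P5 and −7.81 at P15), Lgr6 (−1.47 and −2.05), another R-spondin receptor, and the co-repressor genes Tle4 (−1.36 and −1.12) and Ctbp2 (−1.16 and −1.05).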

How the data were processed

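RNA-seq of 9 libraries was used: 2 for each state and passage and 1 of MEFs, grouped by the deposited sample titles. The deposited values are raw counts of reads per gene. For these, the authors sequenced poly(A) RNA with a kit that does not mark strand, trimmed reads with Cutadapt, aligned them with HISAT2 to mm10 and counted with featureCounts on an Ensembl annotation, whose release, strand setting and handling of reads with several alignments are not given in the sources used here. Spike-in rows (92) had no counts and were not used. Names, positions and exon lengths came from GENCODE M21, which named 54165 of 54232 IDs. The other 67 held at most 0.0053% of the counts of a library.

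Counts were tested with edgeR 4.0.16 in R 4.3.3 (quasi-likelihood, TMM, genes that reached 10 counts in 2 or more libraries of the fit), without a block, each comparison with the libraries of its own groups and the difference between passages with 8 libraries. P-values were two-sided and adjusted over all genes by Benjamini-Hochberg. Genes were called at an adjusted p under 0.01 and at least 2-fold, the thresholds of the study. CPM were scaled over all 9 libraries, fold values are ratios of mean CPM, and ratios of summed counts carry exact 95% intervals. MEFs, with 1 library, were not tested. The script was tested on simulated counts. Alternatives were DESeq2 1.42.0, other scalings, no filter, 8 libraries in each fit, a replicate block, each library left out, and the MEF profile taken off at the median fibroblast marker's share. A crossed block and the lowest marker's share were added after seeing the data. The 52 genes and the lists were chosen with earlier results of these data known. Named were all 52 genes, and of the 69 further genes up to 4 in each direction with the largest changes called at both passages. Replicates differed beyond sampling noise (chi-square per gene 2.10 to 3.28).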

Additional observations from a re-analysis of the deposited data

Results flagged for a closer look

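For 10 Wnt pathway genes the change from naïve to primed cells differed between P5 and P15 by a test of the difference itself (edgeR's quasi-likelihood test, interaction of state and passage over 8 libraries), and this is what marked them for a closer look. On the log2 scale, the P15 change minus the P5 change was 3.47 for Wnt8a, 2.55 for Wnt3, 1.91 for Fzd10, 1.13 for Nkd2 and 1.07 for Frzb. It was −2.24 for Sfrp5, −1.87 for Rnf43, −1.67 for Wnt7b, −1.14 for Fzd5 and −1.12 for Sp5. Adjusted p ran from 5.2e-13 for Fzd5 and 1.26e-12 for Wnt8a to 0.00504 for Rnf43. In naïve cells 9 of the 10 did not pass between P5 and P15, and Sp5 was called. Some moved in naïve cells without passing. From P5 to P15, Nkd2 was 1.71-fold lower in naïve cells and 1.26-fold higher in primed cells. Frzb went from 2.66 to 1.65 CPM per kb of exon in naïve cells and from 8.02 to 10.4 in primed cells. Wnt8a, Wnt3, Fzd10, Sfrp5 and Sp5 were at or under 1.38 CPM in MEFs, and Fzd5 was at 29.9 CPM, Nkd2 at 33.9 CPM.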

How the results depend on the processing

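Of 3253 values recomputed for single genes under alternatives, 3036 kept their direction and side of the threshold, counting 81 sign changes of values past the threshold in neither fit, 154 lost the threshold, 59 gained it and 4 reversed. All 4 reversals came with the median fibroblast marker's share of the MEF profile taken off, which sets many counts to 0: Fzd2 in the difference between passages (7.67) and in naïve cells with passage (−8.16), and Nkd1 (−0.97) and Dkk2 (−1.05) in primed cells with passage. The same alternative gave 2 calls higher and 4 lower in naïve cells with passage and 11 lower in primed cells with passage, and the lowest share gave 2 lower in naïve cells. With the median share off, Fzd9 (adjusted p = 0.0290) and Wnt6 (0.0206) also lost their calls at P15. At P15, DESeq2's Wald test called 3 genes lower in place of 6 (Wnt6, Fzd9 and Sfrp4 lost, Sfrp4 with an adjusted p of 0.0419), and no filter on low counts left 0 called higher in naïve cells with passage. Leaving out each library in turn gave 15 to 17 calls higher and 2 to 3 lower at P5, 15 to 17 and 3 to 6 at P15, 4 to 6 and 4 to 5 for the difference between passages, 3 to 4 higher and always 5 lower in primed cells with passage, and 0 to 1 higher and always 0 lower in naïve cells. A group left with 1 library is assumed to vary like the others. Same-numbered libraries of the 2 states did not deviate together (r of −0.12 at P5 and −0.15 at P15 over 11459 genes), while those of the 2 passages within a state had r of 0.15 in naïve and 0.15 in primed cells. With 2 pairs in each comparison and no shared source in the labels, the numbers are not taken as pairs. With a replicate block there were 16 calls higher and 3 lower at P5 and 17 and 4 at P15, where Wnt6 (adjusted p = 0.0246) and Sfrp4 (0.0129) were not called and Fzd5, Wnt4, Wnt9a, Gsk3b and Lef1 did not pass. The block left the counts of the other comparisons as they were. With the numbers crossed in the block there were 16 and 3 at P5, and 17 and 6 at P15. Depth limits the precision of genes near 1 CPM or below in naïve libraries, among them Lgr5, Dkk1, Wif1, Wnt2, Wnt3a, Wnt6, Wnt10a and Rnf43.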

Other observations

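Of the 12 Wnt ligands first listed, 9 were tested between P5 and P15 of primed cells. Of these, 5 passed higher (55.6%) and 2 lower (22.2%). Of all genes tested, 24.3% passed higher and 22.8% lower, so the share of these ligands lower was close to that of all genes. Wnt3 and Wnt8a were called higher, with log2 changes of 2.63 and 3.63, and Wnt7b lower (−1.36). The R-spondins and other ligands of the further list did not mainly rise. Of 7 tested, 3 passed higher and 3 lower, with 1 called higher and 3 called lower. The called shares were 14.3% and 42.9%, against 3.18% and 8.43% of all genes. Among genes known as targets Axin2 was at 0.18 ± 0.11 (adjusted p = 0.167), Sp5 at −0.078 ± 0.13 (adjusted p = 0.627), Notum at −0.16 ± 0.30 (adjusted p = 0.665) and Lef1 at 0.22 ± 0.12 (adjusted p = 0.126). Nkd1 passed higher (0.43) and T passed higher (0.23), and Tcf7 (−0.42), Rnf43 (−2.35) and Dkk1 (−1.16) passed lower. These targets were picked after their values were seen, from both lists, and what sets their levels was not tested. Cdx1, another known target, went the opposite way to T between the states: it was at 7.08 and 9.01 CPM in naïve P15 and 0.0568 and 0 CPM in primed P15, where T was at 0.811 and 1.33 CPM and 116 and 115 CPM.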
